A study of Mus musculus with 6 samples.

Results

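The 10 genes described here are markers of the resident macrophages of the thymus: *Adgre1*, *Csf1r*, *Lyz2*, *Cd68*, *C1qa*, *C1qb*, *C1qc*, *Mertk*, *Timd4* and *Vcam1*. They were chosen by name as known markers of these cells, with earlier results of these data known. Which cells the reads of the 10 genes came from was not tested. All 10 were found among the 41457 genes of each table. Messenger RNA was sequenced from thymocytes from which cells bearing CD4 or CD8 had been removed with magnetic beads, leaving double-negative (DN) cells. Nc1Bio mice (3 libraries) carried a bacterial artificial chromosome (BAC) with the whole *Nfatc1* locus, from which NFATc1/A with a biotin tag at its C terminus is made, together with the biotin ligase BirA. BirA mice (3 libraries) expressed the ligase from the ROSA26 locus without the BAC, so the ligase is common to both groups. The labels give their genotypes as NFATc1 overexpression and WT. Per the methods of the study, the mice were on a C57/B6 background, 4 to 6 weeks old, and matched for sex and age. Whether each library stands for its own animal is not in the labels, and the p-values therefore reflect no more than the spread among these 6 libraries.

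Thymic macrophages take up the thymocytes that die during selection, which make up most of the cells the thymus produces. ADGRE1 (F4/80) is a surface receptor of unknown ligand that marks mouse macrophages, and CSF1R is the receptor for CSF1 and IL-34 on which most macrophages depend for survival. The C1q chains A, B and C assemble into the recognition molecule of the classical complement pathway, which also coats dying cells. MERTK and TIMD4 bind, through bridging proteins or directly, the phosphatidylserine that dying cells expose. Depletion of CD4 and CD8 cells is not directed at macrophages or at other cells without these co-receptors. In bulk libraries, fewer macrophages and less RNA per macrophage cannot be told apart.

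No member of the set passed the edgeR quasi-likelihood test between Nc1Bio and BirA, and in each of the 10 genes the values of the groups overlapped. The low-count filter passed 9 of the 10, all but *Mertk*. Of these 9, the C1q chains and *Lyz2* ranged most widely within the groups, with 401 *C1qa* reads in BirA 1 and 1 in Nc1Bio 3. With an adjusted p under 0.05, 0 of the 9 were called in either direction, against 0.00818% of all 12224 tested genes, which is *Nfatc1* alone, and 0% called lower. At an unadjusted edgeR p under 0.05, 0 of the 9 were lower in Nc1Bio, against 7.66% of all tested genes. DESeq2 likewise called 0 of the 9 lower, against 2.23% of all tested genes, and gave *Timd4* no adjusted p. The 3 Nc1Bio values lay below all 3 BirA values in 0 of the 9 genes, against 9.98% of all tested genes. All 9 log2 fold changes (Nc1Bio over BirA) were negative, against 50.4% of all tested genes, with a median of -0.91 against -0.0026 over all tested genes. That median was -0.011, with 5 negative values, when BirA 1 was left out. Several lists of other cells were mostly negative too: 11 of 11 tested B cell genes (median -1.66), 7 of 8 of conventional dendritic cells (-1.37), 7 of 7 of stroma and endothelium (-0.82), 9 of 12 of monocytes (-0.76) and 11 of 15 of granulocytes (-0.29) had negative values, against 4 of 17 of DN thymocytes (0.25) and 0 of 7 of erythroid cells (0.58). Negative values were also seen in 4 of 7 genes of plasmacytoid dendritic cells (-0.34), 3 of 3 co-receptor genes (-0.45) and 0 of 4 genes of thymic epithelium (0.090).

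The libraries held 11845952 to 14013497 unique gene reads in Nc1Bio and 13767665 to 15393763 in BirA, and 1 read was worth 0.064 to 0.083 CPM, the usual read count scaled to library size. *Nfatc1*, the check of the labels, had 551 to 597 CPM in Nc1Bio against 96.8 to 152 CPM in BirA (log2 fold change 2.19, SE 0.16, edgeR adjusted p = 0.0141). The 17 DN thymocyte markers summed to 7323 to 8593 CPM in Nc1Bio and 6458 to 7455 CPM in BirA, while *Cd4*, *Cd8a* and *Cd8b1* together gave 21.1 to 41.6 CPM in Nc1Bio and 22.2 to 52.6 CPM in BirA. Each of the 10 macrophage genes had reads in at least 5 of the 6 libraries.

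The promoters of *C1qb* and *C1qc* are shown because these genes lie next to each other with *C1qa* on chromosome 4, within 18.7 kb, and shared their highest library, BirA 1. The promoter of *Lyz2*, which followed another course, is shown beside them. Only bases upstream of both the RefSeq start and the gene start in the deposited tables are printed, 5′ to 3′ on the gene's strand, from RefSeq (GRCm38.p6). Capitals mark matches, on either strand, to GAGGAAG (core of a PU.1 site) or TGCTGA (part of a MAF site).
*C1qb*, chr4:136886201-136886450, minus strand: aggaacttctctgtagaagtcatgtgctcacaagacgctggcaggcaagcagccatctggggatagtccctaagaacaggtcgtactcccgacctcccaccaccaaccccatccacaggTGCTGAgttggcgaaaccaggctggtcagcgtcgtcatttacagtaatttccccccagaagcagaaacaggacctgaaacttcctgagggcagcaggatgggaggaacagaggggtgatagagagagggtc
*C1qc*, chr4:136893066-136893164, minus strand: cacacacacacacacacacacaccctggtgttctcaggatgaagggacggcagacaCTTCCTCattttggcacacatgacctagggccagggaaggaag
*Lyz2*, chr10:117282322-117282522, minus strand: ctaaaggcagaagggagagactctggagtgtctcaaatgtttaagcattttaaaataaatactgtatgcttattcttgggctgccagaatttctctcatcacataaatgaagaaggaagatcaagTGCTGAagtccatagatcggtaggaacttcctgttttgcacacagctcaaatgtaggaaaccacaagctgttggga

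RefSeq promoters were matched for 6 of the 10 genes: *C1qb*, *C1qc*, *Lyz2*, *Cd68*, *Mertk* and *Timd4*. Within the 250 bases upstream of the start, TGCTGA occurred in 3 of the 6 (*C1qb*, *Lyz2* and *Timd4*), against 16.1% of all 32851 promoters. GAGGAAG occurred in *C1qc* alone (1 of 6, against 10.6% of all promoters). GGAAAA, the core of an NFAT site, also occurred in *C1qc* alone (1 of 6, against 20.4%), in bases that are not printed above. CACGTG, an E-box, occurred in 0 of 6 (6.02% of all promoters). The matches found do not overlap one another. These are matches of letters, not sites shown to be bound.

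*Adgre1* (ENSMUSG00000004730, chromosome 17, 57358691 to 57483527, GRCm38, plus strand) had 26.5, 16.7 and 47.4 CPM in Nc1Bio 1, 2 and 3, against 68.3, 70.0 and 31.7 CPM in BirA 1, 2 and 3. BirA 1 and BirA 2 were above every Nc1Bio library, but BirA 3 was below Nc1Bio 3, so the groups overlapped. Nc1Bio averaged 30.2 ± 15.7 CPM and BirA 56.7 ± 21.7 CPM (SD, n = 3 each), a log2 fold change of -0.91 with SE 0.41 and an edgeR adjusted p of 0.444. Its adjusted p ran from 0.227 to 0.766 over the alternatives. In the main edgeR fit it had the smallest unadjusted p of the set, 0.0604. In DESeq2 its unadjusted p was 0.0945, and the smallest was that of *Csf1r*, 0.0241 (DESeq2 adjusted p = 0.281).

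*Csf1r* (ENSMUSG00000024621, chromosome 18, 61105572 to 61132149, plus strand) had 23.2, 11.5 and 18.1 CPM in Nc1Bio, against 43.6, 38.1 and 14.0 CPM in BirA. Here too BirA 1 and BirA 2 were above all Nc1Bio libraries while BirA 3 lay between them. The fold change on the log2 scale was -0.86 (SE 0.42, edgeR adjusted p = 0.469). *Csf1r* and *Adgre1* deviated from their means in much the same way across the 6 libraries, with a root mean square difference of 0.40 on the log2 scale.

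**Figure D1:**
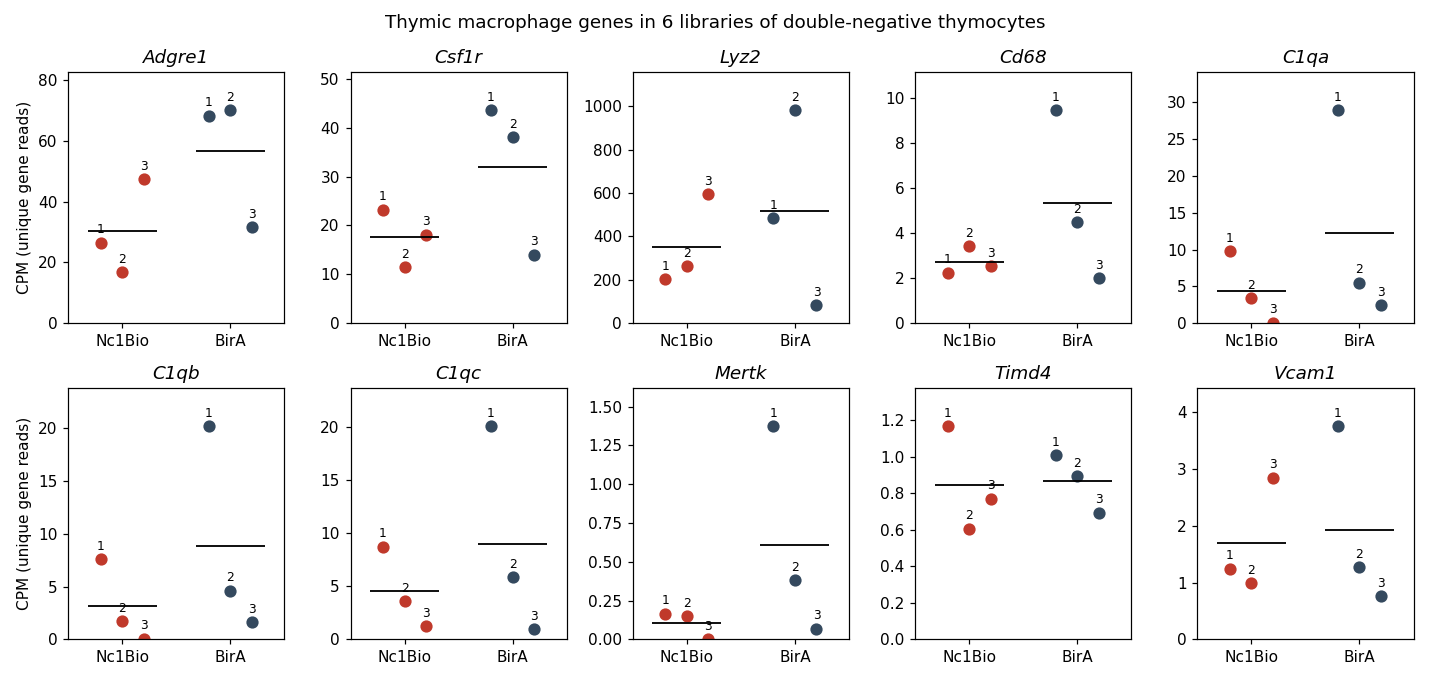
CPM (y axis, linear, from 0, a scale for each gene) of the 10 thymic macrophage genes in Nc1Bio (left, red) and BirA (right, blue); each point is 1 library with its replicate number, and the line is the group mean (n = 3). The groups overlap in each gene, and BirA 1 stands highest for the 3 C1q chains, *Cd68*, *Csf1r*, *Mertk* and *Vcam1*.

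*Lyz2* (ENSMUSG00000069516, chromosome 10, 117277331 to 117282321, minus strand) encodes lysozyme and is strongly expressed by granulocytes and monocytes as well as macrophages. It had 205, 261 and 593 CPM in Nc1Bio, against 486, 982 and 83.5 CPM in BirA. The highest and the lowest value both came from BirA, so the spread inside that group covered all 3 Nc1Bio libraries. Over the groups the log2 fold change was -0.55 (SE 0.75, edgeR adjusted p = 0.805), and 0.31 without BirA 2. Reads unique to *Lyz2* were 88.5% to 90.4% of all its reads, the remainder being shared, and its neighbour *Lyz1*, which has a very similar sequence, had 4 to 72 unique reads, so the level of *Lyz2* is uncertain to that extent.

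*Cd68* (ENSMUSG00000018774, chromosome 11, 69664213 to 69666153, minus strand) encodes a membrane protein of late endosomes and lysosomes. It had 2.25, 3.41 and 2.55 CPM in Nc1Bio, against 9.46, 4.48 and 2.02 CPM in BirA. The Nc1Bio libraries lay close together, within 1.52-fold, whereas the BirA libraries spanned 4.69-fold. This gave a log2 fold change of -0.95 (SE 0.56, adjusted p = 0.537 by edgeR), or -0.25 without BirA 1.

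*C1qa* (ENSMUSG00000036887, chromosome 4, 136895917 to 136898803, minus strand) had 9.74, 3.41 and 0.077 CPM in Nc1Bio, against 28.9, 5.51 and 2.5 CPM in BirA. The value of Nc1Bio 3 rested on 1 read, and BirA 1 had 401 reads. *C1qb* (ENSMUSG00000036905, chromosome 4, 136880129 to 136886187, minus strand) had 7.58, 1.74 and 0.077 CPM in Nc1Bio, against 20.1, 4.61 and 1.67 CPM in BirA. Again 1 read stood behind Nc1Bio 3. *C1qc* (ENSMUSG00000036896, chromosome 4, 136889804 to 136893065, minus strand) had 8.74, 3.64 and 1.23 CPM in Nc1Bio, against 20.1, 5.89 and 0.973 CPM in BirA, the lowest value here being that of BirA 3.

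The log2 fold changes of the 3 chains were -1.48 (SE 1.22) for *C1qa*, -1.49 (SE 1.23) for *C1qb* and -0.98 (SE 0.997) for *C1qc*, with edgeR adjusted p of 0.663, 0.663 and 0.727. Each SE was about as large as its fold change, and the values turned on single libraries. Without BirA 1 the log2 fold changes were 0.13, -0.011 and 0.40, and without Nc1Bio 3 they were -0.90, -0.91 and -0.53. Without both they were 0.71, 0.56 and 0.84, with edgeR adjusted p of 0.804, 0.886 and 0.826.

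**Figure D2:**
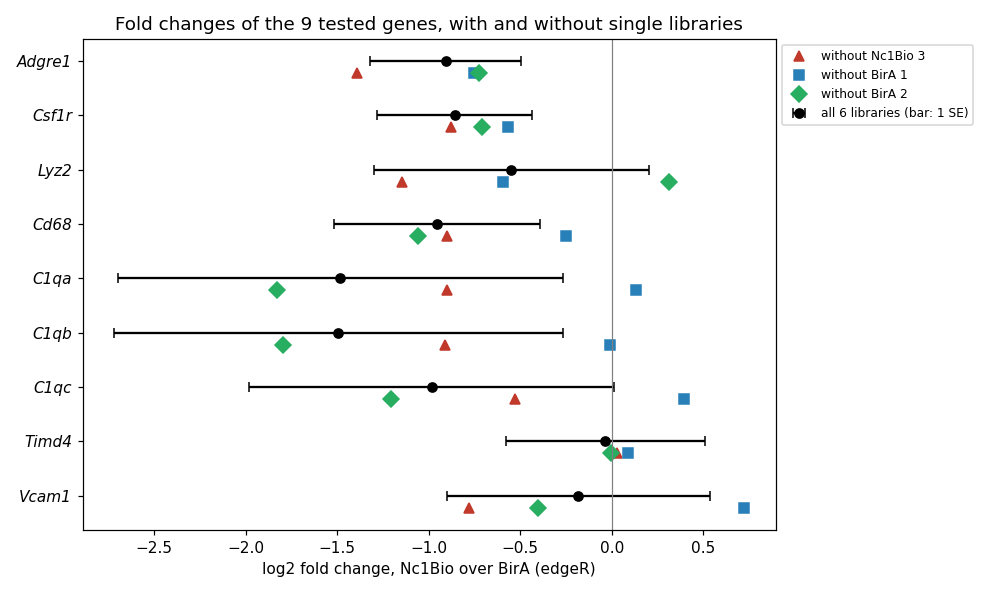
log2 fold change of Nc1Bio over BirA (x axis, edgeR) for the 9 tested genes, with all 6 libraries (black, bar of 1 SE) and without Nc1Bio 3 (red triangle), BirA 1 (blue square) or BirA 2 (green diamond). Without BirA 1 the C1q genes lie at -0.011 to 0.40, and without BirA 2 *Lyz2* lies at 0.31.

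The proportions of the 3 chains were compared in unique exon reads. *C1qa* made up 37.4% (exact binomial 95% interval 32.0% to 43.0%) and 38.8% (29.9% to 48.3%) of the summed C1q reads in Nc1Bio 1 and 2, against 41.9% (38.8% to 45.1%), 34.4% (28.5% to 40.6%) and 48.6% (36.9% to 60.6%) in the BirA libraries. In Nc1Bio 3 it was 5.56% (0.14% to 27.3%) of 18 reads, of which 16 were *C1qc*. *C1qb* and *C1qa* were thus low in that library to a degree that *C1qc* was not. The shares differed among the other libraries too. There *C1qc* ran from 18.9% (10.7% to 29.7%) in BirA 3 to 41.4% (32.3% to 50.9%) in Nc1Bio 2. *C1qb* ran from 19.8% (13.0% to 28.3%) in Nc1Bio 2 to 32.4% (22.0% to 44.3%) in BirA 3. These intervals cover counting error only. Intron reads were 0 of 686 for *C1qa* (exact 95% interval up to 0.536%), 0 of 490 for *C1qb* (up to 0.750%) and 1 of 553 for *C1qc*, against 1.92% of unique gene reads over all genes.

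Reads across an exon junction, a share examined after its values were seen, also differed between libraries for the C1q chains. They were 11.2% of C1q exon reads in Nc1Bio 1, 3.45% (4 of 116, exact 95% interval 0.947% to 8.59%) in Nc1Bio 2 and 0 of 18 (up to 18.5%) in Nc1Bio 3. In BirA 1, 2 and 3 they were 11.4%, 12% and 28.4% (21 of 74, 18.5% to 40.1%). For *Lyz2* the share was 12.8% to 13.3% in Nc1Bio and 11.4% to 12.7% in BirA, a narrower range, on 1202 to 15323 exon reads. For *Adgre1* it was 30.0% to 42.3% in Nc1Bio and 35.6% to 41.0% in BirA. The exact 95% intervals of *Adgre1* in Nc1Bio 1 (36.8% to 48.1%) and Nc1Bio 2 (23.9% to 36.5%) did not overlap. *Cd68*, on 27 to 128 exon reads, had 12.1% to 25.9% in Nc1Bio and 24.6% to 32.1% in BirA. *Csf1r* had 28.5% to 32.6% in Nc1Bio and 27.7% to 31.25% in BirA.

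*Mertk* (ENSMUSG00000014361, chromosome 2, 128698956 to 128802894, plus strand) had 2, 2 and 0 unique reads in Nc1Bio, against 19, 6 and 1 in BirA. That is 0.167, 0.152 and 0 CPM in Nc1Bio, where the 0 allows up to 0.231 CPM (3 reads), against 1.37, 0.384 and 0.0695 CPM in BirA. Most of its reads came from BirA 1. It was not tested, and the fit without a low-count filter gave a log2 fold change of -2.41 (SE 1.40, adjusted p = 0.667 by edgeR). Intron reads were 4 of its 30 unique reads (13.3%, exact 95% interval 3.76% to 30.7%), and 22.9% on total reads. Reads unique to *Mertk* were 60% to 100% of all its reads in the libraries that had any.

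*Timd4* (ENSMUSG00000055546, chromosome 11, 46810800 to 46844332, plus strand) had 1.17, 0.607 and 0.771 CPM in Nc1Bio, against 1.01, 0.896 and 0.695 CPM in BirA. The libraries lay within 1.92-fold of each other on 8 to 14 reads each. For *Timd4* the log2 fold change was -0.035 (SE 0.54, edgeR adjusted p = 0.986). At so few reads a small difference was not detectable.

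*Vcam1* (ENSMUSG00000027962, chromosome 3, 116109949 to 116129688, minus strand) encodes an adhesion molecule that binds the integrin α4β1, and is made by endothelial and stromal cells as well as macrophages. It had 1.25, 0.986 and 2.85 CPM in Nc1Bio, against 3.75, 1.28 and 0.764 CPM in BirA. BirA 1 and Nc1Bio 3 were high and the other libraries low. Its log2 fold change was -0.18 (SE 0.72, edgeR adjusted p = 0.936), and 0.72 without BirA 1. Reads unique to *Vcam1* were 74.1% to 100% of all its reads.

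Levels were compared between genes as CPM of unique exon reads per kilobase of exon. *Lyz2* was highest, at 268 ± 159 for Nc1Bio and 393 ± 342 for BirA (mean and SD, n = 3 each). Its range over the 6 libraries did not overlap that of *Adgre1*, at 9.16 ± 4.84 in Nc1Bio and 17.3 ± 6.49 in BirA. From *Adgre1* down through *C1qa*, *C1qb*, *Csf1r*, *C1qc* and *Cd68* (6-library mean of 3.15) each gene overlapped its neighbour in range. *Cd68* in turn did not overlap *Timd4* (mean 0.389), which was above *Vcam1* (0.205) in 6 of 6 libraries, and *Mertk* was lowest (0.0719). On this scale *Lyz2* lay above 98.3% of the tested genes, *Adgre1* above 70.2% and *Vcam1* above 6.23%.

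The spread within groups was large for most of the set. The pooled SD of log2 CPM was 0.37 for *Timd4*, 0.70 for *Adgre1*, 0.73 for *Csf1r*, 0.81 for *Cd68* and 0.98 for *Vcam1*, against a median of 0.22 over all tested genes. It was 1.41 for *Lyz2*, 1.82 for *C1qc*, 2.52 for *C1qb* and 2.69 for *C1qa*, which are above 1.30, the 95th percentile of all tested genes. BirA 1 was the highest library for 6 of the 9 tested genes, as it was for 21.3% of all tested genes, and BirA 3 the lowest for 4 of the 9, as it was for 13.1%.

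The genes of the set did not vary together as a single block. Summed C1q CPM were 0.984, 0.527 and 0.0293 of the *Adgre1* CPM in Nc1Bio 1, 2 and 3, against 1.01, 0.229 and 0.162 in BirA 1, 2 and 3. The value of Nc1Bio 3 rested on 18 C1q reads, and in that library *Adgre1* was at its highest within Nc1Bio while the C1q sum was at its lowest. *Lyz2* was 7.74, 15.6 and 12.5 times *Adgre1* in Nc1Bio, against 7.12, 14.0 and 2.64 times in BirA. *Csf1r* stayed within 0.382 and 0.877 times *Adgre1* in Nc1Bio, and within 0.443 and 0.638 times in BirA.

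**Figure D3:**
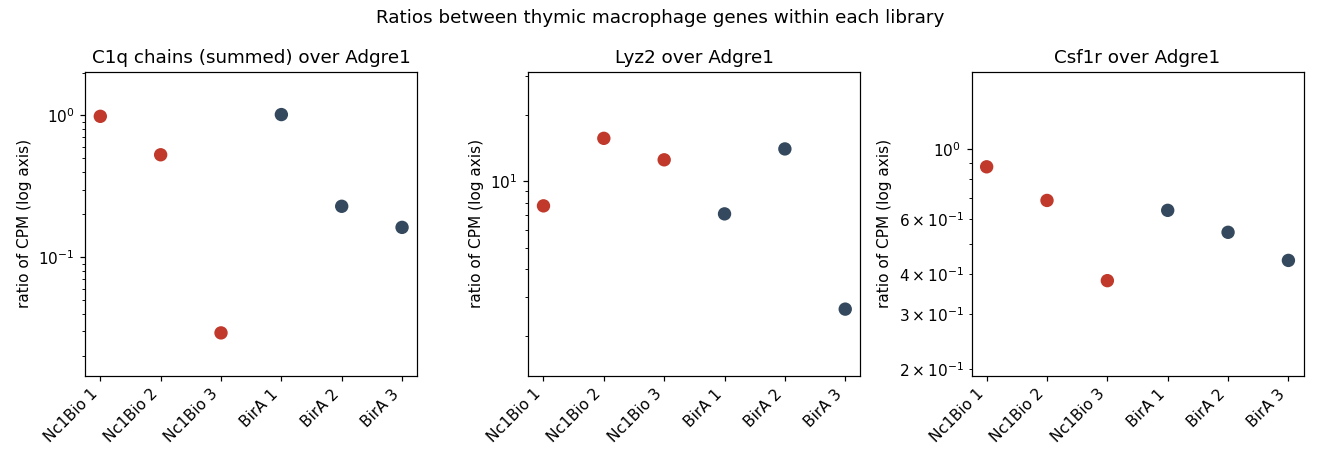
Ratio of CPM (y axis, log scale) of the summed C1q chains (left), *Lyz2* (middle) and *Csf1r* (right) to *Adgre1* in each of the 3 Nc1Bio (red) and 3 BirA (blue) libraries. The C1q ratio is 0.0293 in Nc1Bio 3 and 1.01 in BirA 1, whereas the *Csf1r* ratio is 0.382 in Nc1Bio 3 and 0.638 in BirA 1.

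The 10 genes summed to 286, 303 and 666 CPM in Nc1Bio, against 683, 1113 and 138 CPM in BirA, and *Lyz2* made up 60.6% to 89.0% of each sum. Without *Lyz2* the sums were 80.6, 42.1 and 73.1 CPM in Nc1Bio, against 197, 131 and 54.4 CPM in BirA. On this measure BirA 1 and BirA 2 were above all Nc1Bio libraries and BirA 3 was below 2 of them.

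**Figure D4:**
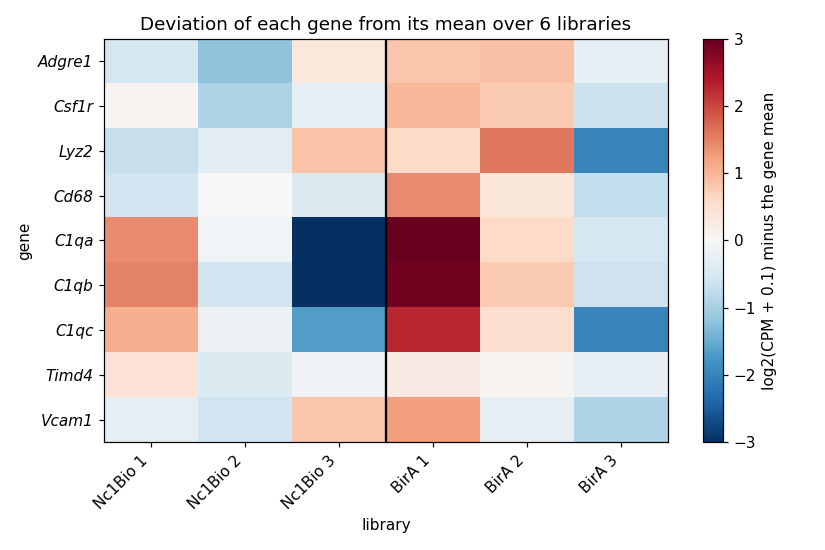
Deviation of log2(CPM + 0.1) from the gene's mean over 6 libraries (colour, red above and blue below, limited at 3) for the 9 tested genes (rows) in Nc1Bio (left of the line) and BirA (right). The C1q rows are dark red in BirA 1 and blue in Nc1Bio 3, where *Adgre1*, *Lyz2* and *Vcam1* are pale red.

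Markers of other cells moved with some of these values. The 15 granulocyte genes, led by *S100a9* and *S100a8*, all had reads and summed to 445, 3222 and 6247 CPM in Nc1Bio, against 568, 10428 and 534 CPM in BirA. BirA 2 and Nc1Bio 3 were highest in both this sum and *Lyz2*, and the granulocyte part in the *Lyz2* values was not tested. The 13 monocyte genes, led by *Plac8* and *Chil3*, summed to 773 to 1044 CPM in Nc1Bio and 649 to 1475 CPM in BirA, also highest in BirA 2. These leading genes differed in course. *Plac8* had 604, 464 and 575 CPM in Nc1Bio, against 418, 475 and 545 CPM in BirA, highest in Nc1Bio 1. *Chil3* had 22.4, 155 and 249 CPM in Nc1Bio, against 46.3, 477 and 25.9 CPM in BirA.

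The 12 genes of conventional dendritic cells, led by *Cd74* and *H2-Ab1*, summed to 515, 150 and 314 CPM in Nc1Bio, against 2238, 501 and 526 CPM in BirA. Most of the sum in BirA 1 came from *Cd74* (1253 CPM) and *H2-Ab1* (495 CPM). Which cells these reads came from was not tested. BirA 1, the library with the highest C1q, *Cd68* and *Csf1r*, was also highest in this sum. Of the genes of this list, *Xcr1* and *Zbtb46* were at 0 in Nc1Bio 3 alone. *Clec9a* was at 0 in Nc1Bio 3 and BirA 2, *Cd209a* in Nc1Bio 3 and BirA 3, and *Clec10a* in BirA 2 alone. The 12 B cell genes, led by *Ighm*, summed to 337 to 1597 CPM in Nc1Bio and 1694 to 2145 CPM in BirA, with *Igkc* at 0 throughout. In 9 of the 11 tested B cell genes all Nc1Bio values lay below all BirA values, against 9.98% of all tested genes. edgeR called 0 of the 11, with 8 lower at an unadjusted p under 0.05 (7.66% of all tested genes). DESeq2 called 4 lower (2.23% of all tested genes). Of the 8 tested genes of conventional dendritic cells, edgeR called 0, with 5 lower at an unadjusted p under 0.05. In 3 of these 8 all Nc1Bio values lay below all BirA values, and DESeq2 called 2 lower. For the monocyte and granulocyte lists each of these counts was 0. The 8 erythroid genes, led by *Hbb-bs* and *Hba-a1*, summed to 40772, 17666 and 97664 CPM in Nc1Bio, against 66151, 30799 and 20079 CPM in BirA. The part of these cells in the values of the 10 genes was not tested. Nc1Bio 3 and BirA 1, highest in the erythroid sum, also had the lowest shares of unique reads. These were 64.1% and 68.1% of total gene reads, against 71.0% to 76% in the other libraries.

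Stromal and endothelial genes, led by *Pecam1*, summed to 130 to 134 CPM in Nc1Bio and 170 to 186 CPM in BirA. Plasmacytoid dendritic cell genes, led by *Ly6d* and *Bst2*, summed to 595 to 768 CPM in Nc1Bio and 507 to 668 CPM in BirA. Thymic epithelial genes, led by *Epcam*, summed to 31.3 to 50.3 CPM in Nc1Bio and 30.8 to 52.6 CPM in BirA, with *Foxn1* at 0 in 5 of 6 libraries.

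Among 29 other macrophage markers, 20 were tested and 17 had negative log2 fold changes (median -1.0). edgeR called 0 of the 20. An unadjusted p under 0.05 was found for 3, all lower in Nc1Bio, against 7.66% of all tested genes. DESeq2 called 2 lower, against 2.23% of all tested genes, which is the share for the lists below as well. *Cx3cr1*, the fractalkine receptor of monocytes, macrophages and other myeloid cells, had 4.16, 4.40 and 4.24 CPM in Nc1Bio, against 13.6, 20.4 and 22.3 CPM in BirA. Its groups did not overlap, and its BirA values did not follow those of *Adgre1* or the C1q chains, since BirA 3 was highest. Its log2 fold change was -2.13 (SE 0.25, edgeR adjusted p = 0.0723, DESeq2 adjusted p = 3.31e-09). *Cd83* had 3.25, 1.90 and 2.55 CPM in Nc1Bio, against 30.4, 3.97 and 5.28 CPM in BirA (log2 fold change -2.36, edgeR adjusted p = 0.331, or -0.85 without BirA 1), and *Slc11a1*, a metal transporter of phagosomes, had an edgeR adjusted p of 0.369.

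Of 14 macrophage transcription factors, 9 were tested, 8 had negative values (median -0.80, and -0.19 without BirA 1), and edgeR called 0. The lowest p were those of *Id3* (log2 fold change -0.66, edgeR adjusted p = 0.300), *Klf4* (-1.30, adjusted p = 0.397) and *Irf5* (-1.09, adjusted p = 0.418, or -0.44 without BirA 1). *Spic*, which is expressed by red pulp macrophages of the spleen, was at 0 in 4 of 6 libraries.

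The list of CSF1 receptor ligands and myeloid growth factor receptors held 11 tested genes, of which edgeR called 0 and DESeq2 called 2 lower. *Il4ra*, a chain of the IL-4 receptor that lymphocytes carry too, had 11.4, 9.94 and 13.0 CPM in Nc1Bio, against 57.3, 27.6 and 22.2 CPM in BirA, without overlap. Its log2 fold change was -1.64 (SE 0.35, edgeR adjusted p = 0.173, DESeq2 adjusted p = 0.000232). *Csf2rb*, the shared chain of the GM-CSF, IL-3 and IL-5 receptors, was at -1.31 on the log2 scale (SE 0.34, edgeR adjusted p = 0.237), and *Il3ra*, the IL-3 receptor α chain, at 0.57 (SE 0.22, adjusted p = 0.388).

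Of the apoptotic cell uptake list, 22 of 30 genes were tested, 18 had negative values (median -0.63), and edgeR called 0 while DESeq2 called 3 lower. *Itgb3*, the β3 integrin that also marks platelets and their precursors, had 35.8, 33.6 and 71.5 CPM in Nc1Bio, against 179, 164 and 148 CPM in BirA, and the groups did not overlap. Its log2 fold change was -1.80 (SE 0.28, edgeR adjusted p = 0.106). It passed with all 6 libraries in DESeq2 (adjusted p = 7.68e-10) and in edgeR without the low-count filter (0.00114), and in edgeR without Nc1Bio 3 (-2.23, adjusted p = 0.0122). *Abca1*, a cholesterol exporter, was at -1.90 (SE 0.54, edgeR adjusted p = 0.279), or -1.12 without BirA 1, and *Stab2*, a scavenger receptor of sinusoidal endothelium, was at 0 in Nc1Bio 2 and 3 and had 4.91, 1.92 and 0.834 CPM in BirA (edgeR adjusted p = 0.295).

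Of 26 complement genes, 17 were tested and edgeR called 0, with a median of -0.63 (and -0.11 without BirA 2), while DESeq2 called 2 lower. *Cd55*, which limits complement activation on the cell surface, was at -2.19 on the log2 scale (SE 0.63, edgeR adjusted p = 0.284), or -2.92 without Nc1Bio 1. *Cr2*, the complement receptor of B cells, was at -2.37 (SE 0.89, adjusted p = 0.380), or -0.94 without BirA 1, and *Itgax*, the αX integrin of dendritic cells, at -0.74 (SE 0.30, adjusted p = 0.403). *C1rb* was at 0 in all 6 libraries.

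All 28 lysosomal genes were tested, 25 had negative values with a median of -0.16 (-0.020 without BirA 1), edgeR called 0 and DESeq2 called 1 lower. *Lipa*, the lysosomal acid lipase, had 70.7, 83.9 and 90.8 CPM in Nc1Bio, against 106, 137 and 142 CPM in BirA, without overlap (log2 fold change -0.65, SE 0.14, edgeR adjusted p = 0.183). Of the cysteine proteases, *Lgmn* was at -1.16 (SE 0.41, adjusted p = 0.362) and *Ctss* at -1.53 (SE 0.57, adjusted p = 0.372), or -0.57 without BirA 1. Of 11 tested adhesion partners of VCAM1 and related molecules, edgeR called 0 and DESeq2 called 3 lower: *Itgal*, the αL integrin of leukocytes (log2 fold change -0.53, SE 0.11, edgeR adjusted p = 0.153), *Msn*, moesin, which links membranes to actin (-0.40, adjusted p = 0.263), and *Itgb2*, the β2 integrin that pairs with αL (-0.81, adjusted p = 0.321).

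Of the genes of these 7 lists, edgeR without the low-count filter called *Cx3cr1*, *Il4ra*, *Csf2rb*, *Itgb3*, *Abca1* and *Lipa* lower, with adjusted p of 0.00114 to 0.040. Of the 12224 genes that pass the filter, the same fit called 145 lower.

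The genes whose pattern was most like the mean pattern of the 9 tested members, by the root mean square difference of mean-centred log2 CPM over the 6 libraries, were *Raver2* (0.28), *Cd300c2* (0.31), *Gm12185* (0.32), *Itgb5* (0.32) and *Sdc3* (0.33). *Csf1r* itself stood at 0.47, *Lyz2* at 1.14 and *C1qa* at 1.78, so the mean pattern described *Csf1r* better than the C1q chains. The same measure, applied after the values were seen to single members, gave other neighbours. Nearest to the mean of the 3 C1q chains were *Acsbg1* (0.54), *C4b* (0.70) and *Cd5l* (0.70), the last of which is a product of tissue macrophages and had 2.08, 1.21 and 0 CPM in Nc1Bio, against 11.0, 3.14 and 0.695 CPM in BirA. Nearest to *Lyz2* were *Vill* (0.23), *Plbd1* (0.27) and *Pi16* (0.27). Nearest to *Adgre1* were *Entpd1* (0.12), *Cyp4f18* (0.12) and *Samhd1* (0.14).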

How the data were processed

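Poly(A) libraries of 59-base single reads were made from DN thymocytes. Per the methods of the study, reads were trimmed with cutadapt, aligned with STAR to GRCm38 and counted with featureCounts. Which program wrote the deposited tables, and whether it used strand, is not stated there. The authors deposited whole-number counts per gene (of gene, exon, junction and intron reads, each unique or total), and RPKM and TPM columns that were not used. Counts are reads, not molecules.

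Unique gene reads were tested in edgeR 4.0.16 (R 4.3.3) by the quasi-likelihood test (filterByExpr, TMM, genotype only), with Benjamini-Hochberg adjustment over 12224 genes and calls at 0.05. SE is the absolute log2 fold change over the square root of F, and CPM use TMM-scaled library sizes. The steps were tested on simulated data. Alternatives were DESeq2 1.42.0 (also at adjusted p under 0.01 with a log2 fold change beyond 0.5 in size), RLE scaling, every gene with a read, genes of at least 1 CPM in 3 libraries, limma-voom (limma 3.58.1), the replicate number as a block, total gene, unique exon and total exon reads, each library left out, haemoglobin and granulocyte genes left out, and total reads for the intron share. The non-legacy mode of edgeR, BirA 1 and Nc1Bio 3 left out together, and CPM by plain totals were added after seeing the data.

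The members and the lists were chosen with earlier results of these data known. Named besides the members are *Nfatc1*, up to 3 tested genes of lowest p per pathway list, up to 2 genes of highest mean CPM per list of other cells, and the 5 tested genes with a mean of at least 2 CPM closest to the mean pattern of the tested members. Genes at 0 and the neighbours of single members were named after their values were seen. Coordinates are those of the deposited tables.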

Additional observations from a re-analysis of the deposited data

How the results depend on the processing

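No member was called in either direction under any alternative, DESeq2 at both thresholds included, and the smallest adjusted p of a member was 0.175. Of 161 member fold changes under the alternatives, 146 had the direction given above. Without BirA 1, *C1qa* (0.13), *C1qc* (0.40), *Timd4* (0.086) and *Vcam1* (0.72) turned positive, and without BirA 1 and Nc1Bio 3 so did *C1qa* (0.71), *C1qb* (0.56), *C1qc* (0.84), *Timd4* (0.14) and *Vcam1* (0.12). *Lyz2* turned positive without BirA 2 (0.31), *Timd4* without Nc1Bio 2 (0.16) or 3 (0.029) and with unique exon reads (0.0013), and *Vcam1* without Nc1Bio 2 (0.093) and in limma-voom (0.0045). Over the fits with libraries left out, the log2 fold changes ran from -2.82 to 0.71 for *C1qa*, -3.27 to 0.56 for *C1qb*, -1.89 to 0.84 for *C1qc*, -1.20 to 0.31 for *Lyz2*, -0.32 to 0.16 for *Timd4* and -0.78 to 0.72 for *Vcam1*. Leaving out libraries gave 4 to 9 members with a negative value and a median of -1.21 to 0.12. Over all genes it gave 0 to 1 called higher and 0 to 2 called lower. Without the low-count filter 11 genes were higher and 145 lower, and in DESeq2 55 and 273. With the replicate number as a block, 1 gene was called lower, the median of the members was -0.71 and no member was called. Deviations of same-numbered libraries correlated at 0.33, 0.11 and -0.066. Nc1Bio 1 correlated best with BirA 1 and Nc1Bio 2 with BirA 2, but Nc1Bio 3 also correlated best with BirA 2 (0.22). The numbers were therefore not taken to pair the libraries in the main fit. Depth limits *Mertk* (0 to 19 reads), *Timd4* (8 to 14 reads) and the C1q chains in Nc1Bio 3.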
